A study of Rattus norvegicus with 16 samples.

Results

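The epididymal cystatins described here are 6 genes, Cst8, Cst11, Cst12, Cst3, Cst6 and Cstb, taken as every probe set of the array whose annotated symbol is one of these names. Each had 1 probe set, so the members were 6 of 14217 genes with a probe set of their own, and 6 of 31099 probe sets in the value table. All 6 passed the filter on low values (a log2 level of 5 or more on 4 or more of the 16 arrays), as did 13410 probe sets in all. The probe sets are 1368767_at for Cst8, 1369925_at for Cst11, 1370404_at for Cst12, 1370855_at for Cst3, 1368162_at for Cst6 and 1370226_at for Cstb. The tissue was the initial segment, the most proximal part of the epididymis, from adult male Sprague-Dawley rats. The 4 groups of 4 arrays were the sham operation, labelled time 0, and 6, 12 and 18 h after efferent duct ligation (EDL), a surgical tie that stops testicular fluid from entering the duct. Ligation was on 1 side and the sham operation on the opposite side of the same animal, so the sham segment came from a rat whose other epididymis was ligated. No animal in the study was without surgery, and the labels do not say which arrays share an animal. The labels call the arrays of a group biological replicates. The values are log2 signals of whole dissected tissue, in which fewer cells of a type and less RNA per cell cannot be told apart.

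Cystatins are small proteins best known for blocking the papain-like cysteine proteases, the cathepsins of lysosomes. Stefins such as Cstb work inside the cell, while Cst3 and Cst6 are secreted. Cst8 is the founding member of a reproductive branch, the CRES group, whose mouse protein lacks sites that cystatins use to hold cysteine proteases, and is abundant in the proximal epididymis and in developing sperm. Secreted cystatins of the epididymis reach the fluid in which sperm mature.

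The 6 genes behaved in 3 ways. Cstb was 1.92-fold higher at 12 h and 1.95-fold higher at 18 h of ligation than in sham segments, and was the only one of the 6 that passed the test at any time. Cst8, Cst11 and Cst12 were low on the same 2 arrays, replicates 1 and 2 at 12 h, but on no array at 18 h to that degree. Cst6 was also low on those arrays, and on 1 sham and 1 array at 18 h. Cst3 stayed within a narrow range on all arrays.

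Before the results, 2 features of the arrays bear on them. Replicates 3 and 4 differed from replicates 1 and 2 across the table, with 4954 probe sets, 36.9% of those tested, passing limma's test of that difference over all groups (adjusted p below 0.05). Among the members, Cst8 was higher on replicates 3 and 4 by 0.99 ± 0.29 on the log2 scale (SE; adjusted p = 0.0176), Cst6 by 1.83 ± 0.40 (adjusted p = 0.00293) and Cstb by 0.29 ± 0.10 (adjusted p = 0.0366). The Cst8 figure was uneven over the groups and drew most on 12 h. The means of replicates 1 and 2 and of 3 and 4 were 12.62 and 13.52 in sham segments and 13.09 and 13.37 at 6 h. They were 10.65 and 13.14 at 12 h and 12.44 and 12.72 at 18 h. In addition, 6 spike-in control probe sets for the bacterial dap gene read 6.38 to 8.57 on replicates 3 and 4 of the sham and 6 h groups and sat at the lowest value of the table, 2.22, on the other 12 arrays. The arrays thus fall in 3 sets, and within replicates 3 and 4 the effect of ligation at 12 or 18 h and the array set cannot be told apart. Values are therefore also given for replicates 1 and 2 and for replicates 3 and 4. Of genes known from the initial segment, Ros1, a receptor kinase gene, read 9.47 to 11.0 and Ggt1, a gamma-glutamyl transferase gene, 11.3 to 12.6. Of 11 genes listed for the caput beyond the initial segment, 3 had a probe set and 1, Adam7, was tested. Adam7 read high, at a mean of 14.2 in sham segments. Defb22 read 2.42 to 2.60 on all arrays, near the lowest value. Spag11a had a sham mean of 2.50, also near it, but ranged from 2.28 to 8.51 over the 16 arrays, with a mean of 3.98 at 18 h. These few markers go both ways and do not settle how well the segment was separated from the tissue next to it.

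Cstb encodes stefin B, an inhibitor of cathepsins inside the cell, whose loss causes progressive myoclonic epilepsy in humans. It had log2 levels of 10.63, 10.03, 10.83 and 10.58 on the sham arrays. At 6 h the levels were 10.53, 10.44, 10.54 and 10.82, at 12 h 11.08, 11.28, 11.68 and 11.80, and at 18 h 11.53, 11.38, 11.61 and 11.38. Every array at 12 and 18 h was above every sham and 6 h array, and the 6 h arrays lay inside the sham range. All 4 arrays above all 4 sham arrays was seen for 6.37% of all probe sets at 12 h and 7.66% at 18 h. The means were 10.52 ± 0.34, 10.58 ± 0.16, 11.46 ± 0.34 and 11.48 ± 0.12 for sham, 6, 12 and 18 h (SD, n = 4 each).

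Differences were tested with limma in 1 model of the 4 group means, with p-values adjusted over all 13410 probe sets by the Benjamini-Hochberg method. Probe sets with an adjusted p below 0.05 are called. At 6 h 0 of 6 members were called, with 38 probe sets called over the whole table (0.283%), and none of the 6 had an unadjusted p under 0.05. At 12 h 1 of 6 was called, against 7.86% of all probe sets (higher 3.77%, lower 4.09%), and at 18 h 1 of 6, against 10.2% (higher 5.20%, lower 4.96%). That member was Cstb each time, so the count of members called was 1 in a list of 6, which is near the background and no result about the list. Cstb rose by 0.94 ± 0.18 on the log2 scale at 12 h, 1.92-fold (SE; 95% interval 0.56 to 1.33; limma adjusted p = 0.00476), and by 0.96 ± 0.18 at 18 h, 1.95-fold (0.58 to 1.34; adjusted p = 0.00316). Each of these 3 comparisons used the same 4 sham arrays.

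The later times were also set against 6 h, which uses no sham array. Cstb was 0.88 ± 0.18 higher at 12 h than at 6 h, 1.84-fold (limma adjusted p = 0.0143), among 4.28% of probe sets called, and 0.90 ± 0.18 higher at 18 h than at 6 h, 1.86-fold (adjusted p = 0.00719), among 7.88%. Between 18 and 12 h Cstb differed by 0.017 ± 0.18 (95% interval -0.37 to 0.40; adjusted p = 1). No probe set in the table was called between 18 and 12 h by limma (0% called), with 877 at an unadjusted p under 0.05. Cstb was higher than in sham segments in both pairs of replicates, a split chosen after values were seen. Within replicates 3 and 4, the sham and later arrays are of different array sets. The values of that pair therefore cannot tell ligation from array set. In a limma model of 8 means, the 12 h difference from sham was 0.85 ± 0.19 for the first pair, replicates 1 and 2 (adjusted p = 0.0249). It was 1.03 ± 0.19 for the second, replicates 3 and 4 (adjusted p = 0.0116), and the difference between the pairs gave an adjusted p of 0.842. At 18 h the difference from sham was 1.13 (adjusted p = 0.00606) in replicates 1 and 2 and 0.79 (adjusted p = 0.0252) in replicates 3 and 4. Where replicates 1 and 2 were fitted alone, the 12 h change of Cstb gave an adjusted p of 0.0796. In the model of 8 means, calls above sham at 12 h made up 4.56% of all probe sets in replicates 1 and 2 and 2.57% in replicates 3 and 4, and at 18 h 4.50% and 4.13%.

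**Figure D1:**
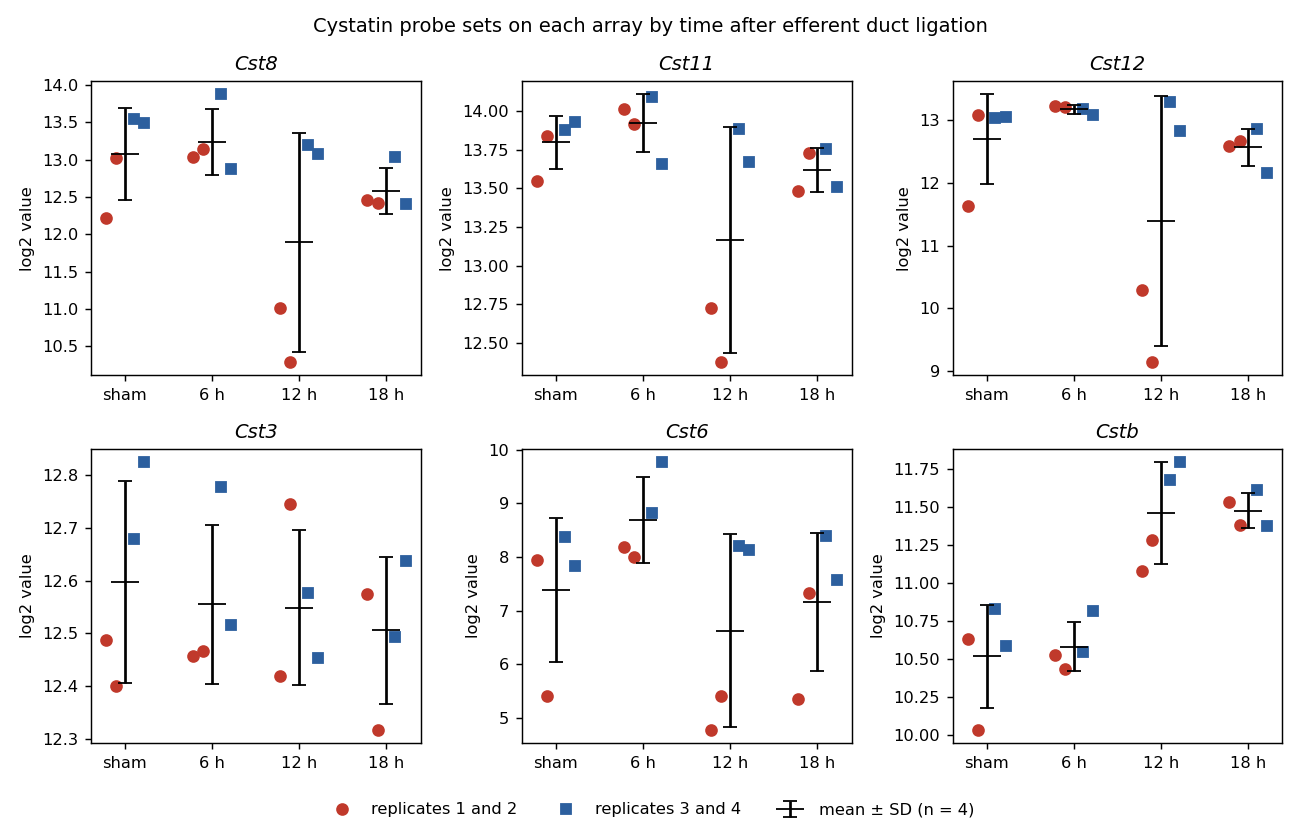
Log2 level of each cystatin probe set on every array (vertical axis) in the sham group and at 6, 12 and 18 h of ligation (horizontal axis), with circles for replicates 1 and 2, squares for replicates 3 and 4 and bars for the mean ± SD (n = 4); each panel has its own scale. Cstb stands higher at 12 and 18 h on all 8 arrays, and Cst8, Cst11 and Cst12 have 2 low arrays at 12 h.

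The genes whose pattern over the 16 arrays was most like that of Cstb, of 8302 genes ranked, were Cfi, which encodes complement factor I, a protease of the complement system (r = 0.961), Tspan15, a tetraspanin membrane protein gene (r = 0.952), and Psme2, a subunit gene of the proteasome activator PA28 (r = 0.945). These are descriptions over arrays that share the groups. Cfi read 7.94, 7.07, 7.92 and 7.76 in sham segments, 7.52, 7.25, 7.94 and 8.06 at 6 h, 8.37, 8.60, 8.98 and 9.37 at 12 h, and 8.94, 9.18, 9.45 and 9.26 at 18 h. All 8 arrays at 12 and 18 h lay above the sham and 6 h arrays, as they did for Cstb. Cfi was picked as the gene most like Cstb, so this likeness largely follows from the choice. Without replicates 1 and 2 at 12 h, r with Cfi was 0.963.

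The promoter of Cstb is shown because the gene changed with ligation. It is the RefSeq window of 250 bases before to 50 after the start on assembly GRCr8, chr20:10247150-10247449, minus strand, 5′ to 3′, with motif matches in capitals.
Cstb: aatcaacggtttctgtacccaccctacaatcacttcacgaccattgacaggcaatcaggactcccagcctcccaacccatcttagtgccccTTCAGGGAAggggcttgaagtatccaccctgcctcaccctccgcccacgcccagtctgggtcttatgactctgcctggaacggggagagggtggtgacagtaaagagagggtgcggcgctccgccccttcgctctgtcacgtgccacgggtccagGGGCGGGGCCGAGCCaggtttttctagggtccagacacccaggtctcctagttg
The first capitals, TTCAGGGAA, match the STAT pattern TTCNNNGAA with its first base at -159 from the start. The second run holds 2 overlapping matches to the NFKB pattern, GGG and CC spaced by any 5 bases, which read GGGCGGGGCC and GGGCCGAGCC. Of 33469 rat promoters of this length, 8.87% held the STAT pattern and 47.3% the NFKB pattern on either strand. A match is a description of the letters only. The ETS pattern AGGAAG, held by 34.5% of promoters, and the C/EBP pattern TTGCNNAA, held by 10.6%, had no match in this window.

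Cst8, Cst11 and Cst12 lie in a cluster on rat chromosome 3 with Cst3. In GRCr8 the order is Cstl1, Cst11, Cstdc1, Cst12, Cst8, Cst13, Cst9l, Cstdc2 and Cst3. Cst6 is on chromosome 1 and Cstb on chromosome 20. Of the other cluster genes with a probe set, Cstdc1 read 2.22 to 2.71 and Cst9l 2.22 on all 16 arrays, at or near the lowest value of the table, while the lowest reading of Cst11 was 12.38, of Cst12 9.14 and of Cst8 10.29. Each is measured by a different probe set, so their levels are not compared. Cstl1, Cst13 and Cstdc2 had no probe set matched here.

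The promoters of Cst8 and Cst12 are shown because the 2 neighbouring genes were low on the same arrays. Both are on the plus strand of GRCr8, Cst8 at chr3:156697526-156697825 and Cst12 at chr3:156687942-156688241, from RefSeq, 5′ to 3′, with motif matches in capitals.
Cst8: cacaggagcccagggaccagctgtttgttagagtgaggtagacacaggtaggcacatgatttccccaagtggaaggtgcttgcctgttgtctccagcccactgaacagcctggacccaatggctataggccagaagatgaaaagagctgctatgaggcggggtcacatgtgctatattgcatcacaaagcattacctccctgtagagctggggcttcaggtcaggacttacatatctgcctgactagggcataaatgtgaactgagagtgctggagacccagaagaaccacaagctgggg
Cst12: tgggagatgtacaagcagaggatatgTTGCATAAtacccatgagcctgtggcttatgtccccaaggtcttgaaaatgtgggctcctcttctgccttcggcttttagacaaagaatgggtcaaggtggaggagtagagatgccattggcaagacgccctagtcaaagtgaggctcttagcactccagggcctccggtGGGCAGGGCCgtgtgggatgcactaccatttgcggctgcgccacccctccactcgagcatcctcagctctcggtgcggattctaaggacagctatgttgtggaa
The Cst8 window held none of the 4 patterns on either strand. The Cst12 window held TTGCATAA, a match to the C/EBP pattern with its first base at -224, and GGGCAGGGCC, a match to the NFKB pattern at -54. No match says only that these letters are not in the window.

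Cst8, also called CRES, is the gene that names the group. The mouse protein blocks the proprotein convertase PC2 in the test tube and forms amyloid in the epididymal lumen. Its log2 levels were 12.22, 13.02, 13.54 and 13.50 on the sham arrays, 13.04, 13.14, 13.88 and 12.87 at 6 h, 11.00, 10.29, 13.20 and 13.08 at 12 h, and 12.46, 12.42, 13.03 and 12.40 at 18 h. At 12 h replicates 1 and 2 lay below every other array of the study, and replicates 3 and 4 lay inside the sham range. The means were 13.07 ± 0.62, 13.23 ± 0.44, 11.89 ± 1.47 and 12.58 ± 0.30 for sham, 6, 12 and 18 h (SD, n = 4 each). The ranges of groups next to each other in this order of levels overlapped.

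Cst11 encodes a secreted cystatin of the male tract whose human protein has antibacterial activity. Cst11 read 13.55, 13.84, 13.88 and 13.93 in sham segments, 14.01, 13.92, 14.09 and 13.66 at 6 h, 12.73, 12.38, 13.89 and 13.67 at 12 h, and 13.48, 13.73, 13.75 and 13.51 at 18 h. Again replicates 1 and 2 at 12 h were the lowest of 16. Its means were 13.80 ± 0.17, 13.92 ± 0.19, 13.17 ± 0.73 and 13.62 ± 0.14 at sham, 6, 12 and 18 h (SD, n = 4 each). Cst12, a further epididymal cystatin of the cluster, read 11.63, 13.09, 13.04 and 13.05 in sham segments, 13.22, 13.21, 13.18 and 13.08 at 6 h, 10.29, 9.14, 13.29 and 12.83 at 12 h, and 12.59, 12.67, 12.86 and 12.16 at 18 h. Replicates 1 and 2 at 12 h were the lowest for Cst12 too, followed by sham replicate 1, while replicate 3 at 12 h was the highest of the 16. The Cst12 means were 12.70 ± 0.71, 13.17 ± 0.065, 11.39 ± 1.99 and 12.57 ± 0.30, so the spread at 12 h was the widest of the 4 groups for each of Cst8, Cst11 and Cst12.

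With 4 arrays a group none of the 3 was called against sham. At 12 h Cst8 differed from sham by -1.18 ± 0.55 (95% interval -2.35 to -0.0033; limma adjusted p = 0.254), Cst11 by -0.63 ± 0.26 (-1.19 to -0.072; adjusted p = 0.186) and Cst12 by -1.31 ± 0.70 (-2.80 to 0.18; adjusted p = 0.334). At 18 h the differences were -0.49 ± 0.55 (-1.67 to 0.68; adjusted p = 0.682), -0.18 ± 0.26 (-0.74 to 0.38; adjusted p = 0.770) and -0.13 ± 0.70 (-1.62 to 1.36; adjusted p = 0.951) for Cst8, Cst11 and Cst12. At 6 h they were 0.16 ± 0.55 (-1.01 to 1.34), 0.12 ± 0.26 (-0.44 to 0.68) and 0.47 ± 0.70 (-1.02 to 1.96), each with an adjusted p of 1. The intervals for Cst8 and Cst12 are wide, so a lack of change was not shown. Single arrays at 12 h decided these values. Without replicate 3, Cst11 passed the threshold (-0.87, limma adjusted p = 0.0394), and without replicate 2 the difference was -0.37 for Cst11 (adjusted p = 0.432), -0.64 for Cst8 (adjusted p = 0.554) and -0.56 for Cst12 (adjusted p = 0.692). With limma's array weights, which gave replicate 3 at 12 h 0.39 and replicate 1 at 12 h 1.59, all 3 passed, with adjusted p of 0.00551 for Cst8, 0.00417 for Cst11 and 0.00816 for Cst12. Those weights also raised the calls over all probe sets at 12 h to 2426, from 1054.

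Split by replicate, the 12 h values separate. The split was chosen after these values were seen, so the values within a pair are given as a description, with no test. In replicates 1 and 2, the 12 h mean of Cst8 differed from sham by -1.97 ± 0.36 on the log2 scale (SE, model of 8 means), that of Cst11 by -1.14 ± 0.19 and that of Cst12 by -2.64 ± 0.45. In replicates 3 and 4 the differences were -0.38 ± 0.36, -0.12 ± 0.19 and 0.017 ± 0.45. The limma test of the difference between the pairs did not pass for any of the 3 after adjustment, with values of -1.59 ± 0.51 for Cst8 (adjusted p = 0.257), -1.02 ± 0.26 for Cst11 (adjusted p = 0.174) and -2.66 ± 0.64 for Cst12 (adjusted p = 0.158), while 0.0447% of all probe sets passed it. As the split was chosen from these values, this test cannot decide whether the pairs differed. Without both low arrays, the 12 h difference from sham was 0.068 for Cst8 and 0.36 for Cst12. For Cst11 the 12 h mean was then 13.78, close to the sham mean of 13.80. Both arrays were left out because they were the lowest, so a smaller drop follows from the choice. It also sets replicates 3 and 4 at 12 h against all 4 sham arrays, which mixes the array sets.

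The low level was not present at 18 h on the arrays numbered 1 and 2. These are other segments than those at 12 h, so none was followed over time. In replicates 1 and 2, Cst8 was 1.79 higher at 18 h than at 12 h, Cst11 1.05 higher and Cst12 2.92 higher, again as a description, since these 12 h arrays were singled out as the lowest. In replicates 3 and 4 the 3 differences were -0.42, -0.15 and -0.55, and over all 4 arrays a group none of the 3 was called. The difference between the pairs gave limma adjusted p of 0.106, 0.0962 and 0.0742, with 0.0149% of all probe sets called. This test cannot decide either, for the same reason.

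**Figure D2:**
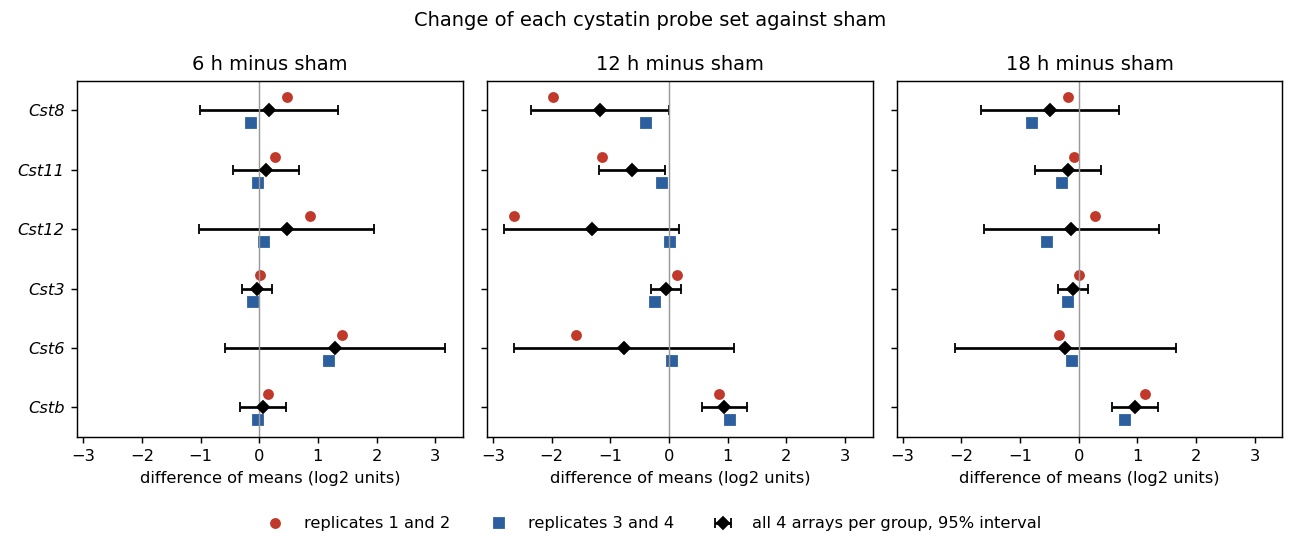
Log2 change of each cystatin against sham at 6, 12 and 18 h, with 95% intervals from the limma model, and the changes within replicates 1 and 2 and within replicates 3 and 4 as separate points. The 12 h points of the pairs lie apart for Cst8, Cst11, Cst12 and Cst6 and close together for Cstb.

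The 3 genes also moved together outside the 2 low arrays. Over the other 14 arrays Cst8 and Cst11 had r = 0.846 and rho = 0.811 (permutation p = 0.00021 and 0.00061, adjusted over 15 pairs 0.00165 and 0.00608), and 0.761 without the 2 arrays farthest from the median of Cst8. Cst11 and Cst12 had r = 0.768 and rho = 0.807 (permutation p = 0.00022 and 0.00081, adjusted 0.00165 and 0.00608), and 0.816 without the 2 arrays farthest from the median of Cst11. Sham replicate 1, where Cst12 read 11.63, was not among those left out for this pair. Cst8 and Cst12 had r = 0.766 (permutation p = 0.00047, adjusted 0.00235) and rho = 0.670 (permutation p = 0.0106, adjusted 0.0531), and 0.736 without the 2 arrays farthest from the median of Cst8. Within replicates 1 and 2 (n = 6) the r values were 0.873, 0.794 and 0.898, and within replicates 3 and 4 (n = 8) 0.960, 0.772 and 0.748, in the same order of pairs. None of the other 12 pairs among the 6 members passed after adjustment. The arrays share groups and array sets, whose part in these correlations was not tested.

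Genes with the patterns most like the 3 were largely shared. For Cst12 they were Vars1, a valyl-tRNA synthetase gene (r = 0.986), P2rx3, an ATP-gated channel gene (r = 0.979), and Penk, the proenkephalin gene of the initial segment (r = 0.972), over 16 arrays. For Cst11 they were Vars1 (r = 0.969), Penk (r = 0.959) and P2rx3 (r = 0.954), and for Cst8 P2rx3 (r = 0.973), Vars1 (r = 0.966) and Lamp1, a lysosomal membrane protein gene (r = 0.961). Much of each r comes from the 2 low arrays. Without them r with P2rx3 was 0.879 for Cst8, 0.748 for Cst11 and 0.901 for Cst12. P2rx3 read 4.55 and 2.86 on replicates 1 and 2 at 12 h and 9.98 and 8.87 on replicates 3 and 4. Penk read 10.69 and 10.19 on the first pair and 13.88 and 13.98 on the second, against 13.12 to 14.14 in sham segments.

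**Figure D3:**
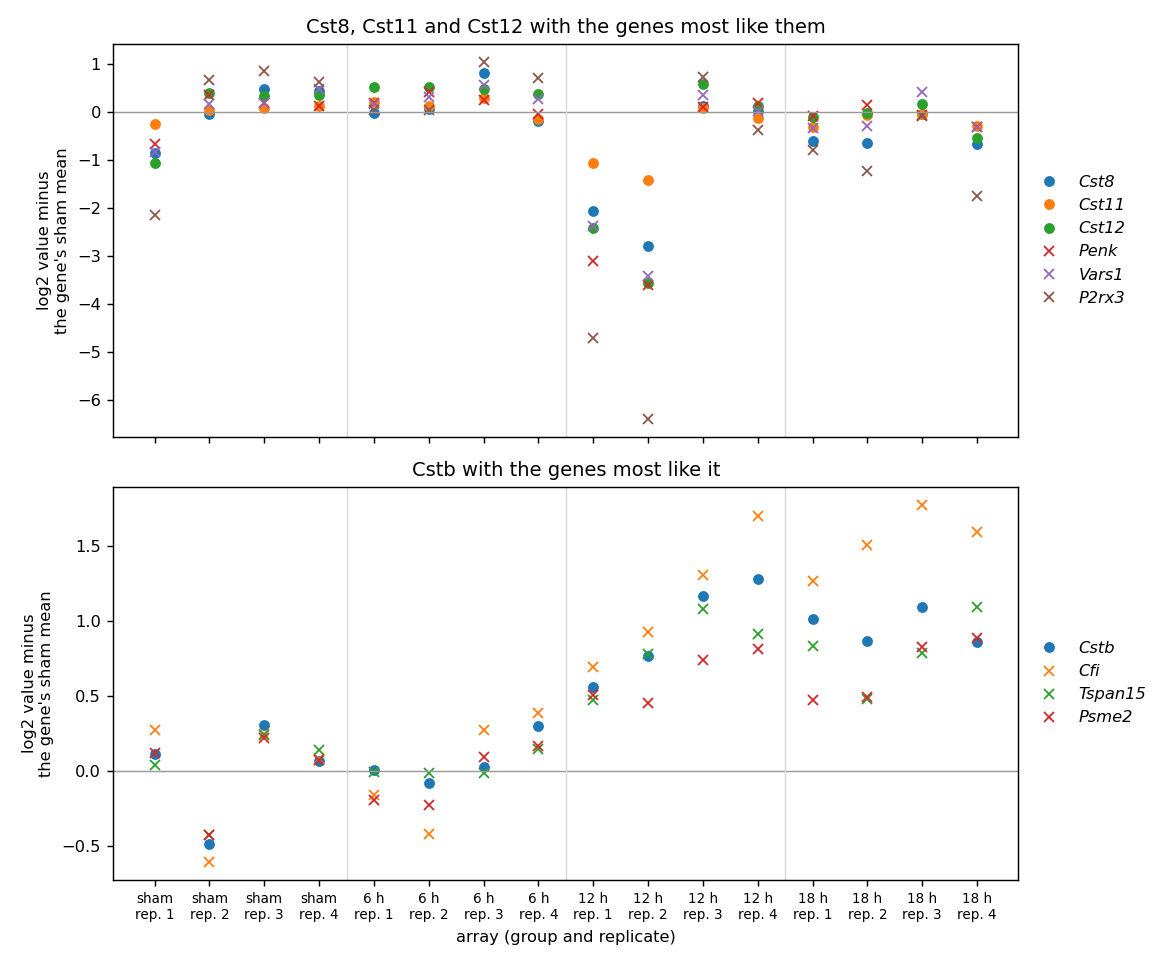
Log2 value minus the gene's sham mean (vertical axis) on each array (horizontal axis), with Cst8, Cst11 and Cst12 above and Cstb below as circles and genes of similar pattern as crosses. Cst12, P2rx3, Vars1 and Penk are low together on replicates 1 and 2 at 12 h.

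Other cell types were looked at beside these values through marker lists, each as the mean log2 level of its tested members. Of the 13 tested of 14 fibroblast markers, the 12 h mean was 9.92 for the first pair (replicates 1 and 2) and 8.39 for the second (replicates 3 and 4), against 9.41 and 8.20 in sham segments. Of the 14 tested of 16 macrophage markers, it was 7.79 and 6.35 at 12 h, against 6.96 and 6.56 in sham segments. Both lists were thus higher on the 2 arrays where Cst8, Cst11 and Cst12 were low. On replicates 1 and 2 at 18 h the fibroblast mean was 9.80 and the macrophage mean 7.69, while Cst8 read 12.46 and 12.42. Epithelial markers (13 of 13 tested) averaged 10.32 and 10.40 in the 2 pairs at 12 h, against 10.02 and 9.93 in sham segments. In replicates 1 and 2 the members of this list went both ways at 12 h. Elf3 differed from sham by 2.41, Cldn4 by 0.86 and Cldn3 by 0.79, but Krt19 by -0.64, Cldn7 by -0.27 and Epcam by -0.17. The list mean is therefore no measure of the share of epithelium. Smooth muscle markers (9 of 10) averaged 10.19 and 9.62 at 12 h, against 9.86 and 9.70 in sham segments, and fat markers (2 of 7 tested, with Plin1, Pparg and Lep within 0.1 of the lowest value on all arrays) 7.61 and 5.10 against 6.10 and 5.73. Endothelial markers (4 of 10 tested) averaged 7.21 and 6.82 at 12 h, against 6.70 and 6.72 in sham segments, and the 1 tested of 9 ciliated cell markers 5.71 and 5.77, against 5.69 and 5.05.

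Sperm markers were set beside Cst8 because the gene is also made in developing sperm. The 4 tested of 10 averaged 3.95 to 7.10 at 6 h, 4.02 to 5.47 at 12 h and 3.98 to 4.35 at 18 h, against 6.62 to 8.63 in sham segments, with Akap4 within 0.1 of the lowest value of the table on all arrays. Of these 4, Prm1, Odf1 and Smcp fell at 12 and 18 h (3 of 4 each time, where 4.09% and 4.96% of all probe sets were called lower), and Odf2 differed by 0.49 at 12 h and 0.35 at 18 h and was not called. Smcp was already called at 6 h (-3.99, limma adjusted p = 0.0487), where 0.283% of all probe sets were called. Prm1 (-3.56), Odf1 (-4.78) and Odf2 (0.32) were not called at 6 h. At 6 h, where the sperm list was as low as 3.95, Cst8 was between 12.87 and 13.88. The 7 tested of 14 initial segment genes averaged 8.16 and 8.37 in the 2 pairs at 12 h, against 9.82 and 9.91 in sham segments. Etv4, Etv5 and Ggt1 fell at 12 and 18 h, 3 of 7, and the other members were not called. At 12 h Spink8 differed by 2.21 and -1.74 in the 2 pairs, Sult1e1 by 0.60 and -0.60, Penk by -3.19 and -0.0099 and Ros1 by -0.89 and -0.16. For Cstb, the macrophage list had 1 of 14 members called higher at 12 h (Fcgr3a) and 2 at 18 h (Cd14 and Fcgr3a), and the epithelial list 3 of 13 at both times (Cldn3, Cldn4 and Elf3), where 3.77% of all probe sets were called higher at 12 h and 5.20% at 18 h. Cstb was higher by 1.03 in replicates 3 and 4 at 12 h, where the macrophage mean was 6.35 against 6.56 in sham segments. The part of cell types in these values was not tested.

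**Figure D4:**
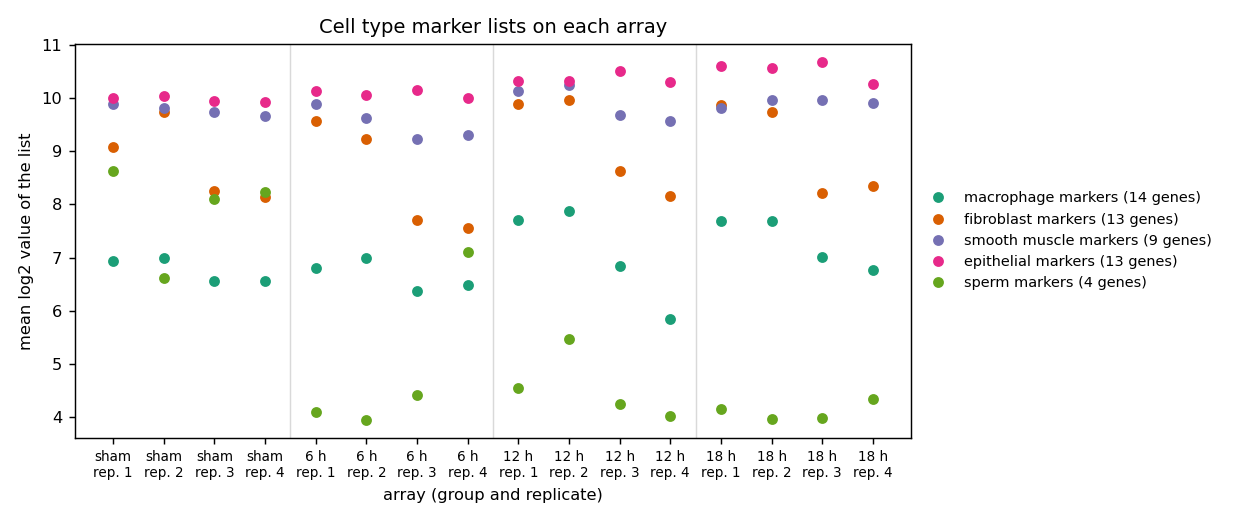
Mean log2 level of the tested markers of each cell type list on each array, in replicate order within sham, 6, 12 and 18 h. Fibroblast markers are higher on replicates 1 and 2 of every group, and sperm markers lie at 3.95 to 7.10 at 6 h, against 6.62 to 8.63 in sham segments.

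Cst3 encodes cystatin C, a secreted inhibitor of cathepsins found in most tissues and body fluids. Cst3 read 12.49, 12.40, 12.68 and 12.82 in sham segments, 12.46, 12.47, 12.78 and 12.52 at 6 h, 12.42, 12.74, 12.58 and 12.45 at 12 h, and 12.58, 12.32, 12.49 and 12.64 at 18 h. All 16 arrays lay between 12.32 and 12.82, and the groups overlapped throughout. The means were 12.60 ± 0.19, 12.55 ± 0.15, 12.55 ± 0.15 and 12.51 ± 0.14 (SD, n = 4 each). Its difference from sham was -0.043 ± 0.12 at 6 h (95% interval -0.30 to 0.21), -0.049 ± 0.12 at 12 h (-0.31 to 0.21) and -0.092 ± 0.12 at 18 h (-0.35 to 0.16), none of them called by limma. These intervals are the narrowest among the 6 genes. The genes most like Cst3 were Safb (r = 0.859), Kazald1 (r = 0.838) and Ilkap (r = 0.816).

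The Cst3 promoter is shown as that of the cluster member with the narrowest range, on the minus strand at chr3:156793888-156794187 in GRCr8, from RefSeq, 5′ to 3′.
Cst3: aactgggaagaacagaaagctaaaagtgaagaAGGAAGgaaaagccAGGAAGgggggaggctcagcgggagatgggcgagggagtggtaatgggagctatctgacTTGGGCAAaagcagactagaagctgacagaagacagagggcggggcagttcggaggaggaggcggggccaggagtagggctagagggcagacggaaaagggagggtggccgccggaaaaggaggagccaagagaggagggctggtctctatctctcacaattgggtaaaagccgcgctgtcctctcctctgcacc
The capitals mark 2 matches to AGGAAG with first bases at -218 and -204, and TTGGGCAA, a match to the C/EBP pattern on the minus strand of the gene at -145. Cst11 and Cst6 are named only.

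Cst6 encodes cystatin E/M, a secreted inhibitor of legumain and cathepsins in human skin. Cst6 read 7.95, 5.41, 8.37 and 7.84 in sham segments, 8.18, 8.001, 8.81 and 9.76 at 6 h, 4.78, 5.41, 8.19 and 8.13 at 12 h, and 5.36, 7.33, 8.39 and 7.58 at 18 h. Of the 4 arrays below 6, all were replicates 1 or 2, and in every group replicates 3 and 4 averaged higher. The means were 7.39 ± 1.34, 8.69 ± 0.80, 6.63 ± 1.79 and 7.17 ± 1.29 (SD, n = 4 each), and their ranges overlapped. The difference from sham was 1.30 ± 0.88 at 6 h (95% interval -0.58 to 3.17), -0.76 ± 0.88 at 12 h (-2.64 to 1.12) and -0.23 ± 0.88 at 18 h (-2.11 to 1.65), none of them called. At 12 h the first pair of replicates gave -1.59 ± 0.78 and the second 0.060 ± 0.78, and the difference between the pairs, -1.65 ± 1.10, did not pass (limma adjusted p = 0.617). As for Cst8, the split was chosen after the values were seen, so this test cannot decide whether the pairs differed. Cst6 had the widest intervals of the 6. Between 12 and 6 h it differed by -2.06 (adjusted p = 0.237), and with replicates 1 and 2 against 3 and 4 as a block it passed (limma adjusted p = 0.0364). The genes most like Cst6 were Ppa2 (r = 0.898), Cldn12 (r = 0.874) and Mrpl30 (r = 0.871).

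The rest of the cystatin superfamily was near the floor of the arrays. Of 23 other genes of the family, 11 had a probe set and 0 passed the filter on low values. Stfa3, Cyss, Cst5, Cst9l, Ahsg and Camp were within 0.1 of the lowest value on all arrays. The highest was Fetub, the fetuin-B gene, with means of 3.59, 3.10, 4.52 and 4.55 at sham, 6, 12 and 18 h.

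The proteases that cystatins act on were given as a list. Of 15 papain-family cathepsins and legumain, 10 were tested and 0 were called against sham at 6, 12 or 18 h by limma, with 0, 1 and 1 at an unadjusted p under 0.05. Their median difference from sham was -0.086, 0.014 and 0.15 at 6, 12 and 18 h, against 0.024, 0.024 and 0.010 over all tested probe sets. The smallest p belonged to Ctsl, the cathepsin L gene, at 18 h, with a difference of 0.33 ± 0.12 (limma adjusted p = 0.111). Of 9 proprotein convertases, the list that holds the PC2 gene, 3 were tested, Furin, Pcsk7 and Mbtps1. Of these, 0 were called against sham, with 0 at an unadjusted p under 0.05 at each time. Furin had means of 9.84, 9.46, 10.65 and 10.46 at sham, 6, 12 and 18 h, and its difference at 12 h was 0.81 ± 0.44 (adjusted p = 0.355). Pcsk2, the gene of PC2, was at the lowest value on all arrays.

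C/EBP factors, which can bind the pattern found in the Cst12 and Cst3 windows, were listed with the androgen receptor, of which 3 of 6 genes were tested. Cebpd rose and Cebpb and Cebpg were not called. Cebpd read 8.18, 8.30, 7.97 and 7.15 at 12 h, against 5.39, 5.36, 5.33 and 5.65 in sham segments. Its change was 2.47 ± 0.23 at 12 h (limma adjusted p = 1.44e-05) and 2.88 ± 0.23 at 18 h (adjusted p = 3.61e-06). Its part in the levels of Cst12 and Cst3 was not tested.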

How the data were processed

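Rat initial segment RNA was measured on Affymetrix rat arrays, 1 per sample, in 4 groups of 4. The deposited log2 signals came from GCRMA according to the submitters' processing notes, with no version stated there. They ran from 2.22 to 15.1, and array number limits the precision. Of 31099 probe sets, 57 controls were left out; 20826 had 1 symbol in the annotation of 2016, 436 several and 9780 none, and 20758 were matched by Entrez ID to RefSeq genes of GRCr8, with 0 symbols changed. Probe sets at or above 5 in at least 4 arrays (13410; 8345 genes) were tested with limma 3.58.1 in R 4.3.3 (lmFit, eBayes). Of several probe sets for 1 gene, that of highest mean level stood for it. Named genes were the members, up to 4 called list genes (or that with the smallest p), and the 3 most correlated genes per member. Correlations used 100000 permutations. Members and lists were chosen with earlier results of these data known. Other normalizations, filters, blocks, array weights and left-out arrays were tried.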

Additional observations from a re-analysis of the deposited data

Results flagged for a closer look

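Cst8 on replicate 3 at 18 h read 13.03, far above the other 3 arrays of its group relative to their range (gap over range 0.914). Cst12 on sham replicate 1 read 11.63, far below the other 3 sham arrays (0.966). Of 24 groups of 4 arrays looked at in this way, chance alone marks about 1 in 20. Cstb changed more against sham at 12 h than at 6 h by 0.88 on the log2 scale, and more at 18 h than at 6 h by 0.90, both by limma's test of the difference, with adjusted p of 0.0143 and 0.00719.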

How the results depend on the processing

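Counts of called members were recomputed under 181 alternatives, of which 160 were within 1.5 times the count given above. At 12 h against sham (1 called) the count was 0 with a fold of at least 2 or with only the groups compared, 2 with the 3 array sets as a block, 3 with replicates 1 and 2 alone and 4 with array weights; leaving out 1 array gave 1 to 2, with 2 only without replicate 3 at 12 h. At 18 h against sham it was 0 with a fold of at least 2. At 12 against 6 h it was 0 at an adjusted p under 0.01, with a fold of at least 2 or with replicates 3 and 4 alone, 2 with the 2 pairs of replicates as a block, 3 with the 3 array sets or with replicates 1 and 2 alone, and 5 with array weights; leaving out 1 array gave 1 to 3, with 3 only without replicate 3 at 12 h. At 18 against 6 h it was 0 with a fold of at least 2 and with either pair of replicates alone. For any time it was 3 with replicates 1 and 2 alone and 4 with array weights, and 1 to 2 with 1 array left out, with 2 only without replicate 3 at 12 h. Array weights also raised the calls over all probe sets, to 2426 at 12 h against sham (1054 without weights). They gave 1471 at 12 against 6 h (574 without) and 2653 for any time (1368 without). Replicates 1 and 2 hold the 12 h arrays singled out as the lowest, so the counts for that pair alone are a description. With the replicate block Cstb changed by 0.94 at 12 h (limma adjusted p = 0.00171) and 0.96 at 18 h (adjusted p = 0.00120), and the replicate block moved no count of members, while calls over all probe sets went to 1709 at 12 h (1054 without it) and 2165 at 18 h (1362 without it). Same-numbered arrays correlated in their deviations by 0.0065 to 0.556 over 24 pairs, and 11 of 16 arrays correlated best with their own number. Arrays of different groups within replicates 1 and 2, or within replicates 3 and 4, correlated by -0.0056 to 0.630 whatever their number. Pairing and array set cannot be told apart from these values, and the labels state no pairing. With 12 h compared in only its own groups, Cstb gave an adjusted p of 0.0631.

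Of 828 alternatives for single genes, 748 kept direction and side of the threshold, 6 were weaker, 20 stronger and 54 reversed, none of the reversed called. With replicates 3 and 4 alone, changes were -0.15 (Cst8), -0.029 (Cst11) and -0.024 (Cstb) at 6 h, 0.017 (Cst12) and 0.060 (Cst6) at 12 h, and -0.42 (Cst8), -0.15 (Cst11), -0.55 (Cst12), 0.050 (Cst3), -0.18 (Cst6) and -0.24 (Cstb) at 18 against 12 h. With replicates 1 and 2 alone, they were 0.019 (Cst3, 6 h), 0.14 (Cst3, 12 h), 0.28 (Cst12, 18 h), 0.0027 (Cst3, 18 h) and 0.12 (Cst3, 12 against 6 h). Without both low 12 h arrays, they were 0.068 (Cst8), 0.36 (Cst12) and 0.77 (Cst6) at 12 h, and -0.56 (Cst8), -0.16 (Cst11), -0.49 (Cst12), -0.998 (Cst6) and -0.26 (Cstb) at 18 against 12 h. That setting was not planned and was chosen because these arrays were low. With the 3 array sets as a block, Cst3 was 0.061 at 12 h, 0.018 at 18 h, 0.10 at 12 against 6 h and 0.061 at 18 against 6 h. With array weights, changes were -0.091 (Cst8) and -0.024 (Cstb) at 6 h and 0.013 (Cst3, 12 against 6 h), and Cst3 there was 0.0063 with quantile normalization and 0.0050 with cyclic loess. Leaving out 1 array gave -0.12 to 0.32 for Cst8, -0.12 to 0.033 for Cst3 and -0.098 to 0.17 for Cstb at 6 h, -0.11 to 0.027 for Cst3 at 12 h, -0.49 to 0.0087 for Cst12 and -0.89 to 0.38 for Cst6 at 18 h, -0.072 to 0.068 for Cst3 at 12 against 6 h, -0.093 to 0.025 for Cst3 at 18 against 6 h, and -0.087 to 0.022 for Cst3, -0.081 to 1.14 for Cst6 and -0.11 to 0.13 for Cstb at 18 against 12 h. The cause was not tested. The number of arrays limits the precision, and no detection calls were used here.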
